A study of Mus musculus with 45 samples.

Results

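The effect of the second mutant copy of Shank3 on the adult striatum was examined by comparing 5 Shank3-HM (homozygous, HM) with 5 Shank3-HT (heterozygous, HT) mice, chosen by the genotype and tissue given in the sample labels. These are 10 of the 45 samples of the series, which also covers cortex and hippocampus, and the 5 striatal WT mice were fitted with them to show from which level each genotype departs. All were male C57BL/6J mice of 13 weeks, and both mutant groups carry a germline deletion of Shank3 exons 14 to 16, on 1 or on both chromosomes. The labels call the homozygous mice knock-out, while their columns carry the code KI. Values are normalized counts per gene from stranded mRNA sequencing of whole striatal tissue, so that fewer cells of a type and less RNA per cell cannot be told apart. Tested were the 16482 of 18135 genes whose striatal mean over 15 samples reached 10, on the scale log2(value + 1).

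Shank3 is a scaffold of the excitatory postsynaptic density, where it links glutamate receptors, through their adaptor proteins, to the actin cytoskeleton. In the striatum most neurons are GABAergic spiny projection neurons, which receive glutamate from the cortex and thalamus, and Shank3 is the Shank family member known for its role at these synapses. A gene that responds to loss of both copies alone keeps its WT level in HT mice, a gene that follows copy number has its HT level between the others, and a gene that differs in heterozygotes alone has HM mice near WT.

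The deleted segment is shown because it defines both mutant groups. In a 22-exon Shank3 transcript of the GENCODE annotation (Shank3-203, GRCm38, plus strand), exons 14 to 16 hold 341 of 7365 bases, all coding. Their sum leaves a remainder of 2 when divided by 3, the codon length. Exons are numbered along this transcript, and the numbering used for the mouse line was taken to be the same. Exon 14 lies at chr15:89531626-89531708 (83 bases), exon 15 at chr15:89532095-89532219 (125 bases) and exon 16 at chr15:89532329-89532461 (133 bases). They are printed whole in lower case.
Shank3 exon 14: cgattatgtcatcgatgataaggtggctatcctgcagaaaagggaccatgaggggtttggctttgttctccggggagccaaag
Shank3 exon 15: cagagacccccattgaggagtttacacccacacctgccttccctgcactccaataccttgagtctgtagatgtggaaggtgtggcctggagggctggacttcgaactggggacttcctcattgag
Shank3 exon 16: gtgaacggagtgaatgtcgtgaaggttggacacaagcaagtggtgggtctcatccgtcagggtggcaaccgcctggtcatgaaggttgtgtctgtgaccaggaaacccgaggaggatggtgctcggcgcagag
The deposited values are sums over a whole gene, so reads of the other exons of a mutant transcript count towards them.

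Shank3 itself (chr15:89499623-89560261, plus strand) stepped down with each copy. The 5 HT mice had 9243, 9323, 8355, 8746 and 7959 normalized counts, and the 5 HM mice 6061, 5883, 6242, 5922 and 4569. The groups did not overlap, and the lowest HM mouse stood apart from the other 4. The means were 8725 ± 581 (SD, n = 5) and 5735 ± 667 (SD, n = 5), against 12317 ± 606 (SD, n = 5) in WT mice. HM mice were lower than HT mice by a log2 difference of -0.61 ± 0.07 (SE; limma, adjusted p = 0.00161). The two-sided exact permutation test gave p = 0.00794, the smallest that 5 against 5 mice allow. The step from WT to HT was -0.50 (95% interval -0.65 to -0.34), and the second step minus the first was -0.11 (limma, adjusted p = 0.914), on the log2 scale. Shank3 was thus at 70.8% of its WT mean in HT and at 46.6% in HM mice.

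The striatal identity of the samples and markers of neighbouring tissue were checked first, because several HT libraries stood apart. Markers of spiny projection neurons were high in all 3 genotypes: Drd1, the dopamine receptor of the direct pathway, had means of 8483 in HT and 9448 in HM mice, and Ppp1r1b, which encodes DARPP-32, 47968 and 50903. A list of 17 markers of the globus pallidus and basal forebrain, written after the values were seen, was high in HT replicates 2, 3 and 5. Relative to all genes tested, its mean log2 level was 0.69, 0.59 and 0.84 in these mice, 0.10 and 0.07 in HT replicates 1 and 4, and 0.07 to 0.27 in HM mice. Its summed level ranged from 16456 to 22294 normalized counts in HT, from 16574 to 17832 in HM and from 15624 to 16290 in WT mice. Pvalb, the parvalbumin gene, is a member of this list and also of that of striatal interneuron markers. It had 139, 324, 388, 142 and 445 normalized counts in HT replicates 1 to 5, against 130 to 190 in HM mice.

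Other marker lists varied in the same direction or between single mice. The summed level of the 19 choroid plexus and ependyma markers tested was 110190 normalized counts in HT replicate 5 and 5315 to 9349 in the other 14 mice. Of 30 astrocyte genes, 28 had a negative HM minus HT difference (median -0.13), and of 32 oligodendrocyte genes 32 did (median -0.14). No gene of either list passed the adjusted threshold, and 9 astrocyte genes and 1 oligodendrocyte gene had an unadjusted p under 0.05, all lower. These are 30% and 3.12% of the lists, beside 6.49% of all genes tested (2.78% lower). Their summed levels overlapped, at 240992 to 279437 (astrocyte) and 246355 to 417395 (oligodendrocyte) in HT and at 224255 to 266830 and 250806 to 382574 in HM mice. Markers of cortical and claustral projection neurons differed widely within genotypes: Neurod6, a cortical transcription factor gene, ranged from 0.991 to 407 normalized counts in HT and from 32.5 to 447 in HM mice. The counts of genes called and of list members are therefore given also without HT replicates 2, 3 and 5, a choice made after the values were seen. Without them 13 astrocyte differences were positive and 17 negative (median -0.01), and 28 oligodendrocyte differences were positive and 4 negative (median 0.09), so that the direction of the oligodendrocyte list turned. At an unadjusted p under 0.05 there were then 1 higher and 0 lower astrocyte genes, and 0 oligodendrocyte genes.

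**Figure D1:**
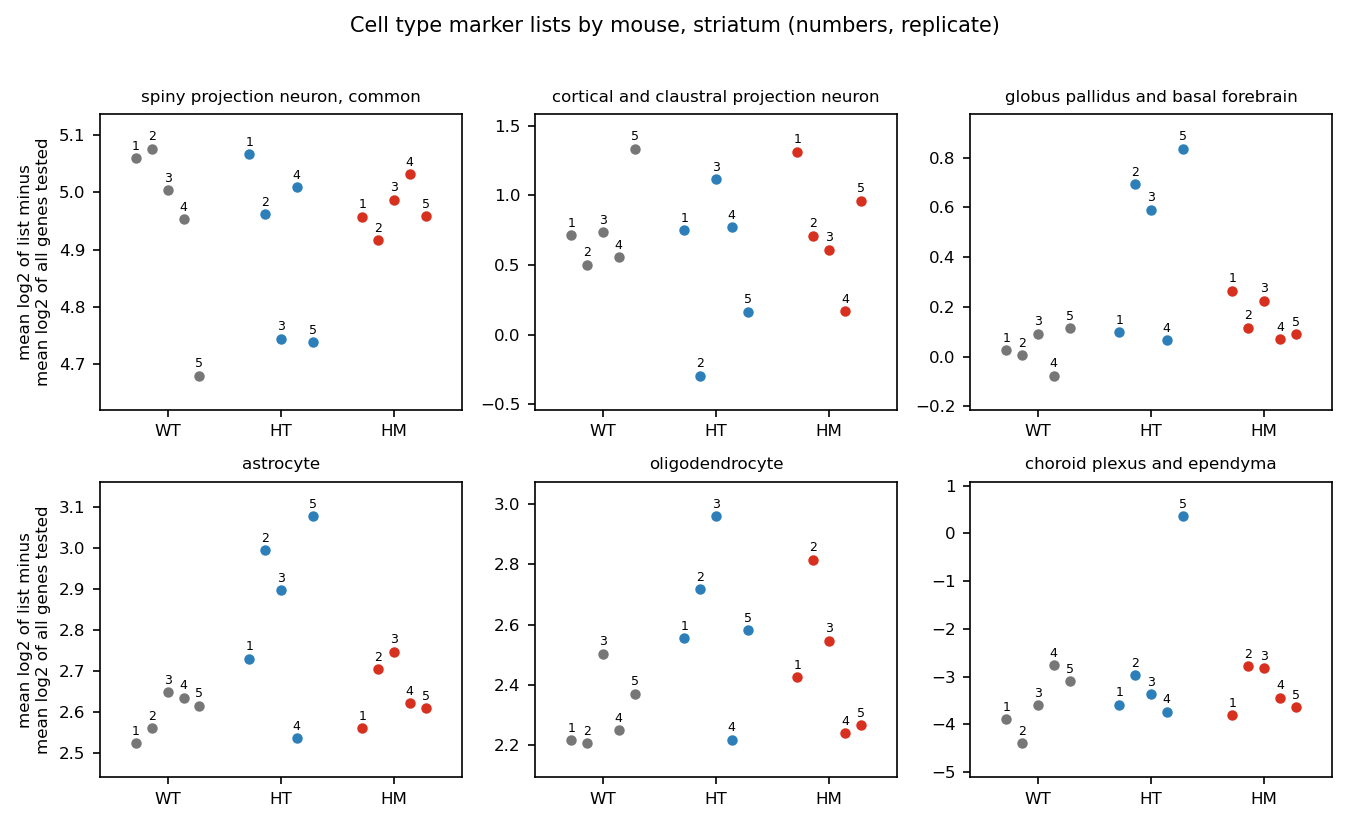
Mean log2 level of 6 marker lists relative to all genes tested (y axis) in the 15 striatal mice by genotype (x axis), with replicate numbers. HT replicates 2, 3 and 5 lie at 0.59 to 0.84 for pallidal markers, where the other 12 mice lie at or below 0.27, and HT replicate 5 at 0.36 for choroid plexus and ependyma markers.

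Across the striatum, 23 genes differed between HM and HT mice (limma, adjusted p under 0.05; 0.140% of the genes tested). Of these, 17 were higher in HM mice (0.103%) and 6 were lower (0.0364%). At an unadjusted p under 0.05 there were 1069 genes (6.49%), 610 higher (3.70%) and 459 lower (2.78%), and the median difference over all genes was 0.00105 on the log2 scale. Without HT replicates 2, 3 and 5, which leaves 2 HT mice, 0 genes passed and 748 had an unadjusted p under 0.05. Without the intensity trend of the variance 11 genes passed, 10 of them among the 23, and with only the HM and HT mice in the fit 7 passed, 6 of them among the 23. Mir670hg, S100a10, Gm2115, Hhipl1, Snai3, Clmp, Rnf166, Sorbs2, Xpot, Cadm3, Lamp5, Alox8 and Mas1 passed in neither of these fits, and Kremen1, Scarb1, Asb2 and Atp13a4 passed in the former alone. Leaving out 1 mouse at a time left 3 to 28 genes: 3 without HT replicate 5 (Gdpd5, Shank3 and Rimbp2), 10 and 9 without HT replicates 2 and 3, and 15, 8, 10, 8 and 8 without HM replicates 1 to 5.

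The 17 genes that rose in HM mice had smaller differences between HT and WT mice. Their differences between HM and HT ranged from 0.26 to 1.35 (median 0.55), and those between HT and WT from -0.30 to 0.21 (median -0.01), on the log2 scale. In 13 of the 17 the 95% interval of the HT minus WT difference included 0, in 3 it lay below 0 and in 1, Lamp5, above 0. Without HT replicates 2, 3 and 5 the HT minus WT differences ranged from -0.20 to 0.47 (median 0.04), and the interval included 0 in 16 and lay above 0 in 1. The step then was 0.47 for Mir670hg (0.05 with all mice), 0.25 for Mas1 (-0.01), 0.26 for Snai3 (0.14), 0.25 for Lamp5 (0.17) and 0.15 for Nptx2 (-0.04). All 5 HM mice were above all 5 HT mice in each of the 17 genes, as they were in 0.746% of the genes tested. The steps share the HT mice, so that a gene chosen for low HT values has its first step pushed downwards by that choice, and these first steps are a description.

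**Figure D2:**
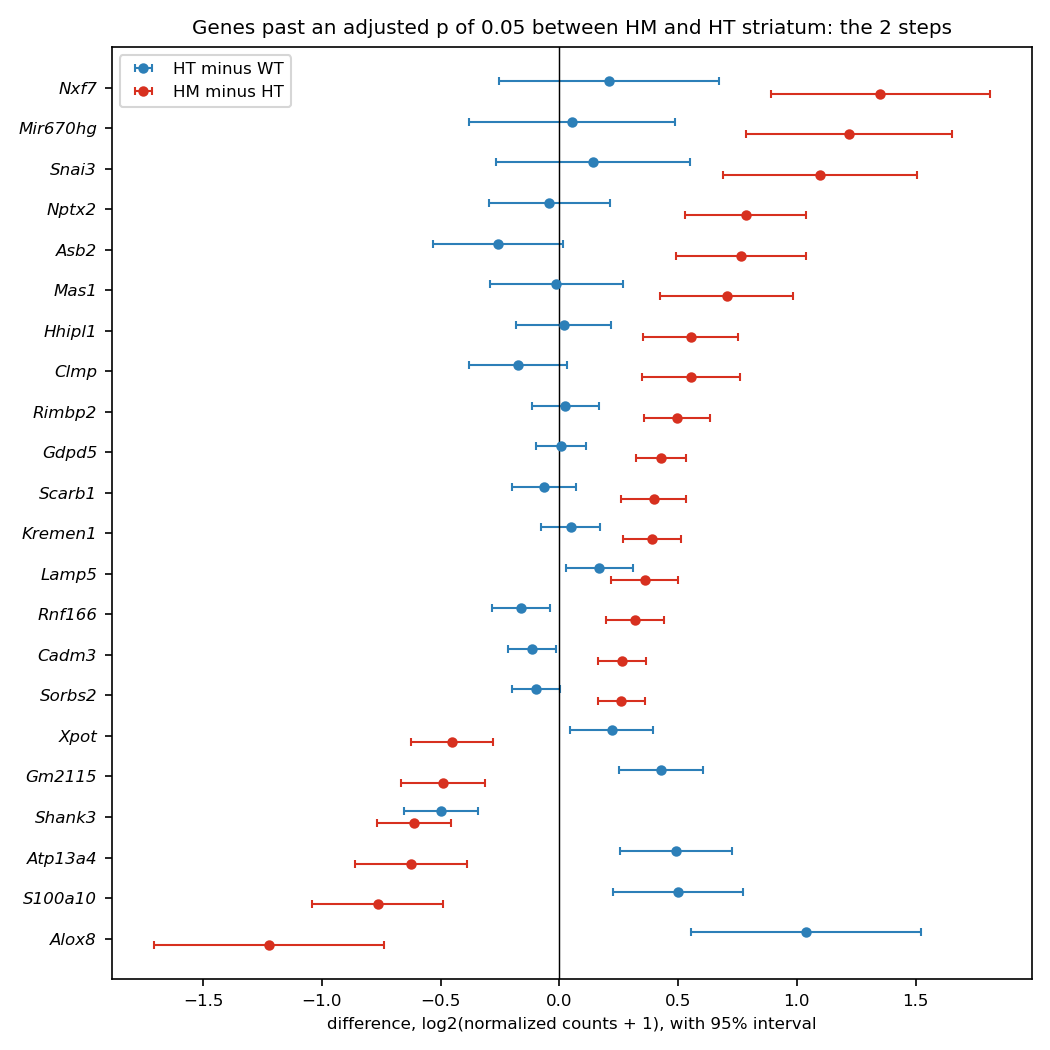
Log2 differences with 95% intervals (x axis) for 22 of the 23 genes that passed between HM and HT mice (y axis), for the step from WT to HT (blue) and from HT to HM (red), with 5 mice per genotype. The blue points of the 16 higher genes drawn lie between -0.26 and 0.21, Shank3 steps down in both, and the other 5 lower genes have a blue point above 0.

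Gdpd5 had the smallest p value. It encodes a membrane glycerophosphodiesterase known for cleaving glycosylphosphatidylinositol anchors (chr7:99381414-99461877). HT mice had 1749, 1674, 1627, 1564 and 1505 normalized counts, and HM mice 2122, 2164, 2313, 2108 and 2219. The HT range lay on that of WT mice (1534 to 1712), while the lowest HM mouse was above every mouse of both other genotypes. The difference was 0.43 ± 0.05 on the log2 scale (SE; adjusted p = 0.00161), and 0.40 without HT replicates 2, 3 and 5 (adjusted p = 0.142).

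Rimbp2, Nptx2 and Cadm3, whose proteins act at synapses, were among the 17. Rimbp2, a presynaptic active zone protein that couples calcium channels to the release machinery (chr5:128757791-128953486), had 3774, 4202, 3892, 4797 and 4328 normalized counts in HT mice and 5821, 6183, 5889, 5789 and 5802 in HM mice. The WT mice (3778 to 4754) overlapped the HT mice almost fully. The HM minus HT difference was 0.49 ± 0.07 (SE, log2; adjusted p = 0.00466). Nptx2, a secreted pentraxin that gathers AMPA receptors and is induced by neuronal activity, had 604, 509, 539, 673 and 477 in HT mice and 1157, 873, 836, 884 and 1088 in HM mice. Its group means were 560 ± 78.4 and 968 ± 145 (SD, n = 5 each), a difference of 0.79 ± 0.12 (SE, log2; adjusted p = 0.0140), with WT mice at 579 ± 99.0 (SD, n = 5). Cadm3, a synaptic adhesion molecule, had a smaller difference of 0.26 ± 0.05 (SE, log2; adjusted p = 0.0330), from 9942 to 11908 normalized counts.

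A receptor of lipid transport rose as well. Scarb1, the high-density lipoprotein receptor, had 878 to 1093 in HT mice (median 1011) and 1190 to 1394 in HM mice (median 1316), a difference of 0.40 ± 0.06 (SE, log2; adjusted p = 0.0200). Of 25 genes of cholesterol synthesis and its control, 15 differences were positive and 10 negative, and the median was 0.00, near that of all genes (0.03 without HT replicates 2, 3 and 5).

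The largest ratios belonged to genes of low level. Nxf7, an X-linked member of the nuclear RNA export factor family, had 37.4, 59.8, 45.5, 38.0 and 28.4 normalized counts in HT mice and 99.9, 131, 97.2, 83.3 and 120 in HM mice, a ratio of means of 2.55 (log2 difference 1.35 ± 0.22, SE; adjusted p = 0.0200). Mir670hg, a long non-coding host transcript of a microRNA, had 171, 82.5, 109, 129 and 84.1 in HT mice and 338, 313, 196, 181 and 312 in HM mice, where 2 mice lay close above the highest HT mouse. Its difference was 1.22 ± 0.21 (SE, log2; adjusted p = 0.0246), and 0.80 without HT replicates 2, 3 and 5 (adjusted p = 0.801). Snai3, a repressor of the Snail family, had 44.0 to 75.1 in HT mice (median 54.8) and 98.0 to 159 in HM mice (median 118), a difference of 1.099 ± 0.19 (SE, log2; adjusted p = 0.0304).

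Kremen1, Hhipl1 and Asb2 were also among the 10 higher genes of smallest p. Kremen1, a Dickkopf receptor that restrains Wnt signalling, rose from 1093 ± 63.7 to 1435 ± 112 normalized counts (SD, n = 5 each; log2 difference 0.39, adjusted p = 0.0140). Hhipl1, a relative of the hedgehog-interacting protein, had 291, 359, 403, 393 and 357 in HT mice and 545, 579, 513, 525 and 475 in HM mice (0.55 ± 0.10, SE, log2; adjusted p = 0.0246). Asb2, the substrate receptor of a ubiquitin ligase, had 90.3 to 121 in HT mice (median 96.7) and 141 to 193 in HM mice (median 185), and its WT range of 98.9 to 147 overlapped both.

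The remaining 7 higher genes had differences of 0.26 to 1.099 on the log2 scale and adjusted p values of 0.0304 to 0.0392. Besides Snai3 and Cadm3 they were Lamp5, a neuronal lysosome-associated membrane protein, Mas1, the angiotensin-(1-7) receptor, Clmp, an adhesion molecule, Sorbs2, an actin-associated adaptor, and Rnf166, a ubiquitin ligase. Cadm3, Clmp, Sorbs2 and Rnf166 are named here although they rank below the first 10. With the replicate number as a block in limma, Snai3, Clmp, Rnf166, Cadm3 and Mas1 did not pass (adjusted p of 0.0556 to 0.0858). Lamp5 was the gene among the 17 whose HT minus WT interval lay above 0 (0.17, interval 0.03 to 0.31, log2), with means of 2905 ± 248 in WT, 3261 ± 242 in HT and 4182 ± 276 in HM mice (SD, n = 5 each). In Mas1 and Clmp 1 HT mouse, replicate 4, came close to the HM mice: Mas1 had 139, 126, 122, 220 and 139 normalized counts in HT and 231, 225, 258, 236 and 239 in HM mice.

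**Figure D3:**
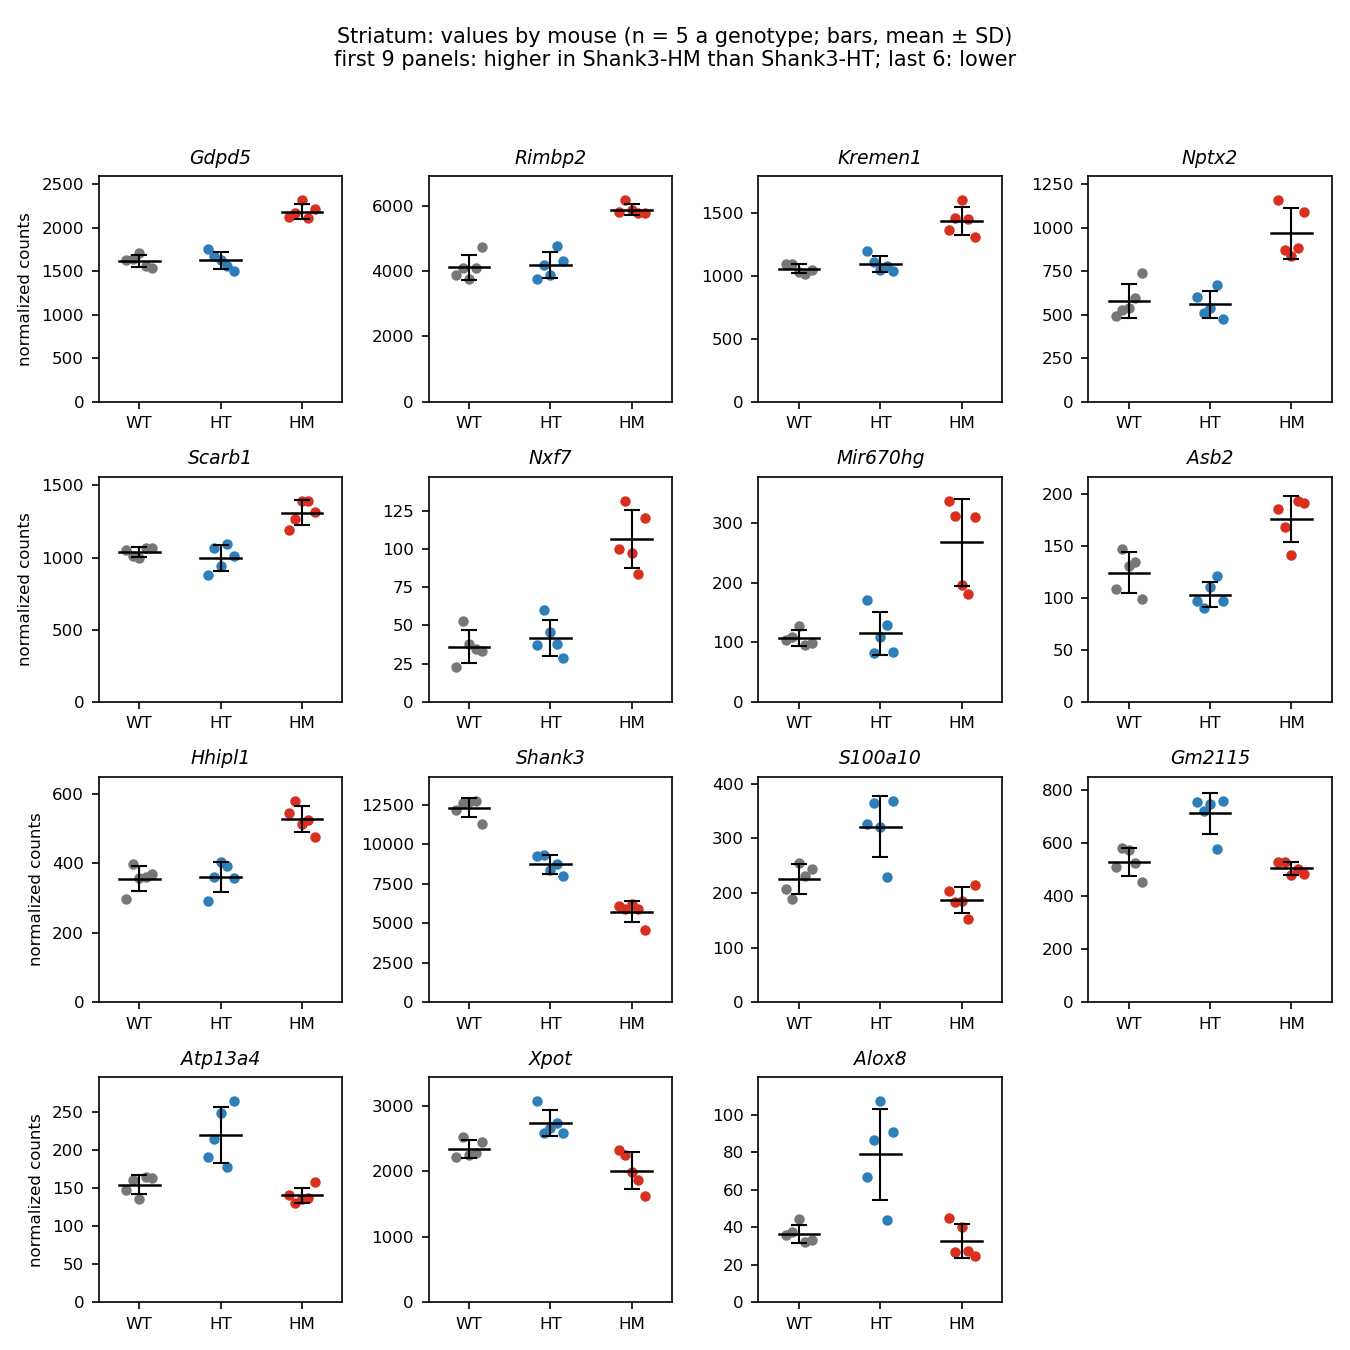
Normalized counts (y axes, from 0) of 9 higher and 6 lower genes of smallest p in each of 5 WT, 5 HT and 5 HM striata (x axes); lines and bars are the mean ± SD. In the 9 higher genes WT and HT mice overlap and all HM mice lie above HT mice, whereas in S100a10, Gm2115, Atp13a4 and Alox8 the HT mice are highest, with replicate 4, the fourth point, lowest among them.

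The 5 genes other than Shank3 that were lower in HM than in HT mice had their highest level in HT mice. Their HT minus WT differences were 0.22 to 1.04, with intervals above 0 in all 5 (in 2 without HT replicates 2, 3 and 5, at 0.26 to 0.57), and their HM minus WT differences were -0.26 to -0.06, with intervals that included 0 in 4. All 5 HM mice were below all 5 HT mice in 4 of these genes, as they were in 0.522% of the genes tested. The choice for high HT values pushes the first step upwards, so this too is a description. Gm2115, a predicted gene (chr7:84528954-84583531), had 754, 720, 747, 577 and 758 normalized counts in HT mice and 528, 530, 478, 503 and 483 in HM mice. Its HT replicate 4 lay within the WT range (454 to 583), apart from the other 4 HT mice, and the difference was -0.49 ± 0.08 (SE, log2; adjusted p = 0.0246).

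Alox8, a lipoxygenase, was the only one of the 23 genes whose groups overlapped. It had 66.8, 86.3, 107, 43.9 and 90.7 normalized counts in HT mice and 45.1, 26.7, 40.1, 27.2 and 24.6 in HM mice, with a difference of -1.22 ± 0.23 (SE, log2; adjusted p = 0.0392). S100a10, the annexin A2 partner p11, had 326, 364, 320, 230 and 369 in HT mice and 204, 183, 185, 152 and 214 in HM mice (-0.76 ± 0.13, SE, log2; adjusted p = 0.0246). Atp13a4, a P5-type transport ATPase, had 191, 215, 249, 178 and 264 in HT mice and 141, 131, 136, 137 and 158 in HM mice (-0.63 ± 0.11, SE, log2; adjusted p = 0.0324).

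In these 4 genes the lowest HT mouse was replicate 4, which had the lowest level of the pallidal, astrocyte and oligodendrocyte lists in its group. Their part in the result was not tested. Without HT replicates 2, 3 and 5 the differences were -0.39 for Gm2115, -0.75 for Alox8, -0.55 for S100a10 and -0.39 for Atp13a4 (adjusted p = 0.816, 0.974, 0.816 and 0.900). Xpot, the export receptor for transfer RNAs, differed from them in that replicate 4 was not its lowest HT mouse: HT mice had 3067, 2591, 2666, 2742 and 2586 and HM mice 2322, 2246, 1991, 1860 and 1622. Its difference was -0.45 ± 0.08 (SE, log2; adjusted p = 0.0330), and -0.54 without the 3 HT mice (adjusted p = 0.281). The differences of Shank3 (-0.66), Nxf7 (1.46), Hhipl1 (0.64), Rimbp2 (0.47) and Scarb1 (0.42) without these 3 mice stood beside -0.61, 1.35, 0.55, 0.49 and 0.40 with them, and none passed with 2 HT mice (adjusted p = 0.103, 0.230, 0.271, 0.271 and 0.281). The genes were chosen in a fit that held the 2 kept HT mice and the same HM mice, which favours similar sizes, so this is a description. Other differences became smaller without the 3 HT mice. In 5 of the 23 genes the size fell by a factor over 1.5: Alox8, Atp13a4 and Mir670hg, given above, Mas1, from 0.70 to 0.44 (adjusted p = 0.974), and Cadm3, from 0.26 to 0.17 (adjusted p = 0.894). Nptx2 went from 0.79 to 0.59 and Clmp from 0.55 to 0.41 (adjusted p = 0.586 and 0.830).

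Whether HT mice depart from the midpoint of WT and HM mice was tested for every gene, since an evenly graded response has no departure. A departure arises with loss of both copies alone, and also where HT mice alone differ. Its SE is larger than that of 1 step (for Gdpd5 0.087 against 0.050), so an absence of calls does not show a graded response. The value tested is the step from HT to HM minus the step from WT to HT on the log2 scale, which is 0 where HT lies at the midpoint, positive where HT lies below it and negative where HT lies above it. No gene passed (0 of 16482 with limma at an adjusted p under 0.05), and 1118 genes (6.78%) had an unadjusted p under 0.05. Without HT replicate 4 the count was 8, with Gm2115, Atp13a4, Alox8, S100a10, Clmp and Mas1 among them. Without HT replicates 2, 3 and 5 it was 0, and 491 genes had an unadjusted p under 0.05. The 3 genes of smallest p, which did not pass, were Gm2115 (second step minus first -0.92, HT above the midpoint), Exo1 (3.67, HT below it) and Atp13a4 (-1.12, HT above it), each with an adjusted p of 0.102. Exo1, an exonuclease of DNA repair, had 6.14, 13.8, 6.78, 7.14 and 5.95 normalized counts in HT mice, 30.8, 31.4, 27.6, 30.6 and 15.5 in HM mice and 25.2, 45.4, 18.3, 86.1 and 21.6 in WT mice. The HT mice thus lay below every mouse of the other genotypes. Of the 17 higher genes 16 had a departure with an unadjusted p under 0.05, which their choice for low HT values favours, and 9 did without HT replicates 2, 3 and 5.

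The HT level was also described for the genes that differed between HM and WT mice. At an adjusted p under 0.05 these were 30 genes (0.182%), 26 higher (0.158%) and 4 lower (0.0243%), and 12 of them, Shank3 and 11 higher genes, were also among the 23 genes above. The HT mean lay between the other means in 28 of the 30, which includes genes whose HT mean lay close to that of WT, such as Gdpd5 (HT minus WT 0.01, log2). Choosing genes for a wide gap between HM and WT favours this, so the count is a description. A departure from the midpoint with an unadjusted p under 0.05 was found in 15 of the 30, beside 6.78% of all genes tested. When HT replicates 2, 3 and 5 were left out, this held for 9 of the 30. The HT mean then lay between in 25 of the 30, and 33 genes passed between HM and WT. This comparison shares the HM mice with that against HT, and its genes are given for their HT level alone. Gpx6, a glutathione peroxidase, had means of 349 ± 80.8, 236 ± 74.5 and 140 ± 31.2 normalized counts in WT, HT and HM mice (SD, n = 5 each). Its HM minus HT difference of -0.73 did not pass (log2; adjusted p = 0.387). Nrn1l, a neuritin relative, had 26.2 ± 5.38, 40.7 ± 9.63 and 62.2 ± 10.3, 2 steps of 0.61 each on the log2 scale.

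Chrnb4, the beta4 subunit of nicotinic acetylcholine receptors, likewise had 11.7 ± 3.63, 26.4 ± 12.4 and 42.6 ± 8.20 normalized counts (SD, n = 5 each), with steps of 1.03 and 0.77 on the log2 scale. Its HT mice had 38.5, 17.8, 13.3, 21.8 and 40.7 and so spanned nearly the range between the other genotypes. Sema4a, a semaphorin, had means of 627, 741 and 1129, Scrt2, a neuronal repressor, 1128, 1286 and 1550, Plk5, a polo-like kinase, 748, 643 and 565, and Lgi2, a secreted synaptic protein, 2266, 2821 and 3182. In the last of these the second step (0.17) was smaller than the first (0.31), on the log2 scale. Inhba, the activin A subunit and an activity-regulated gene, instead had 608, 614 and 851, and lay just outside the threshold between HM and HT mice (0.47, log2; adjusted p = 0.0578).

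**Figure D4:**
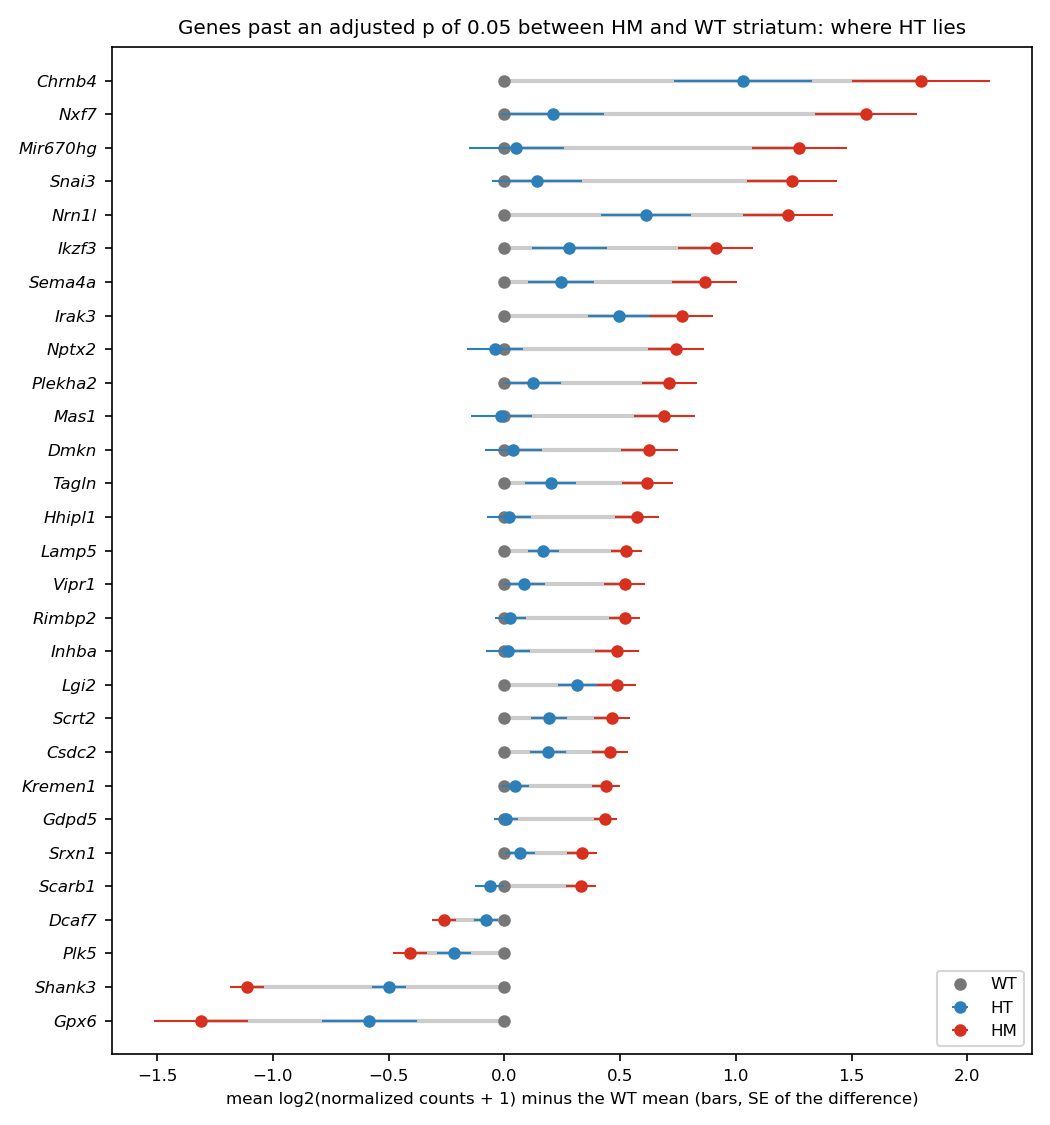
Mean log2 level relative to the WT mean (x axis) for 29 of the 30 genes that passed between HM and WT striatum (y axis), with WT, HT and HM means of 5 mice each and bars for the SE of the difference from WT. HT means of Gdpd5, Rimbp2, Nptx2, Inhba and Mas1 lie at 0.01, 0.03, -0.04, 0.01 and -0.01, while those of Nrn1l, Chrnb4, Irak3 and Gpx6 lie at 0.61, 1.03, 0.50 and -0.58.

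Lists of genes by role were described by how many members passed, beside 0.140% of all genes. Of 48 activity-regulated genes tested, Nptx2 passed, 29 differences were positive and 19 negative, and the median was 0.04 on the log2 scale. Of 44 presynaptic release genes Rimbp2 passed, with 26 positive and 18 negative differences (median 0.03), and the member of smallest p in the other direction was Syt2, a synaptotagmin (-0.46; adjusted p = 0.499), whose HT replicates 2, 3 and 5 were also its highest. Of 41 glutamate receptor and auxiliary genes only Nptx2 passed (20 positive, 21 negative, median -0.00). Of 40 cortical and claustral markers Nptx2 and Lamp5 passed, with 27 positive and 13 negative differences. The excitatory postsynaptic scaffolds and regulators, a list that leaves out the mutated Shank3 itself, had 0 of 35 members past the threshold with limma, 2 higher and 2 lower at an unadjusted p under 0.05, and 17 positive and 18 negative differences, and the smallest p in each direction belonged to Psd3 (0.16; adjusted p = 0.499) and Iqsec1 (-0.13; adjusted p = 0.635).

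Genes of the spiny projection neurons were described by pathway. Of 35 markers common to these neurons 29 differences were positive and 6 negative (median 0.06), 3 had an unadjusted p under 0.05 and 0 passed the adjusted threshold with limma. Rgs4, a regulator of G-protein signalling, had the smallest p, with 17408 to 25988 normalized counts in HT and 25450 to 28978 in HM mice (0.45, log2; adjusted p = 0.272). Of 15 direct pathway genes 9 were positive and 6 negative, 3 had an unadjusted p under 0.05 and 0 passed, with Tac1, the substance P precursor, at 0.31 (adjusted p = 0.295), Pdyn, the dynorphin precursor, at 0.27 (adjusted p = 0.736) and Drd1 at 0.16 (adjusted p = 0.757). Of 13 indirect pathway genes 7 were positive and 0 passed, and 0 had an unadjusted p under 0.05. Drd2, the dopamine receptor of that pathway, differed by 0.07 (95% interval -0.11 to 0.24), Adora2a, an adenosine receptor, by -0.13 (-0.32 to 0.06) and Penk, the enkephalin precursor, by 0.05 (-0.18 to 0.27).

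The sign of several lists depended on HT replicates 2, 3 and 5, and without these mice 0 members of any list passed with limma. Common spiny projection neuron markers then had 7 positive and 28 negative differences (median -0.05), indirect pathway genes 2 and 11 (median -0.13), and direct pathway genes 8 and 7 (median 0.02). Activity-regulated genes had 18 positive and 30 negative (median -0.07), cortical and claustral markers 16 and 24 (median -0.09), glutamate receptor genes 13 and 28 (median -0.04), scaffolds 13 and 22 (median -0.02), and presynaptic release genes 25 and 19 (median 0.02). The median over all genes was -0.00554 on the log2 scale without these mice.

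Among the other lists, glucocorticoid-responsive genes had the highest median (0.14), with 24 of 30 differences positive, 6 higher and 1 lower at an unadjusted p under 0.05, and 0 past the adjusted threshold. Of the 30, 28 were positive without HT replicates 2, 3 and 5 (median 0.34), and 10 had an unadjusted p under 0.05, all higher. Their member of smallest p was Klf9, a glucocorticoid-induced transcription factor (0.26; adjusted p = 0.430). Of 78 cytosolic ribosome genes 53 were positive (median 0.03) and of 74 respiratory chain genes 26 were positive (median -0.02), with 0 passing in either list and 2 in each at an unadjusted p under 0.05. Of 33 tested neighbours of Shank3 on chromosome 15, 0 passed and 1 had an unadjusted p under 0.05, 13 were positive and 20 negative (median -0.03), and Panx2, a pannexin channel gene, had the smallest p (-0.28; adjusted p = 0.401). Circadian (24 tested), inhibitory synapse (28), striatal interneuron (27), microglia (28) and endothelial and mural genes (31) had 0 members past the threshold with limma. At an unadjusted p under 0.05 they had 2, 3, 3, 0 and 3 higher and 3, 2, 3, 4 and 2 lower members, and their medians were -0.05, 0.00, 0.01, -0.07 and -0.05. With HT replicates 2, 3 and 5 left out these medians were -0.10, -0.06, -0.08, -0.08 and 0.06, and those of the ribosome, respiratory chain and chromosome 15 lists were -0.00, -0.05 and 0.05.

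The second copy was also compared between regions, to learn which differences were larger in the striatum. The regions were taken from the same groups of mice, and the labels do not tie a sample to an animal, so samples of different regions may share animals, which the fit of 9 separate groups does not take into account. With samples of the same genotype and replicate number treated as 1 animal, 8 genes passed against the cortex, the 7 given here among them, and 4 against the hippocampus, with Rimbp2 among them. In a fit of all 45 samples the HM minus HT difference of Shank3 was -0.61 in the striatum, -0.60 in the cortex and -0.63 in the hippocampus (SE 0.06 each), and its difference between striatum and cortex was -0.01 (adjusted p = 0.9996). For 7 of 16708 genes (0.0419%) the HM minus HT difference in the striatum differed from that in the cortex, and for 1 (0.00599%) from that in the hippocampus, at an adjusted p under 0.05. Rimbp2 passed both, with 0.49 in the striatum, 0.01 in the cortex and -0.03 in the hippocampus (SE 0.06 each; adjusted p = 0.0221 and 0.0101 for the contrasts). Its mean level was 7451 normalized counts in HT and 7519 in HM cortex and 5768 and 5643 in the hippocampus, beside 4199 and 5897 in the striatum, so that the striatum was the lowest of the regions in HT mice and lay between the others in HM mice.

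Nptx2 and Hhipl1 differed from the cortex in the same way. Nptx2 had differences of 0.79, -0.06 and -0.00 in striatum, cortex and hippocampus (SE 0.12 each; adjusted p = 0.0470 against the cortex and 0.143 against the hippocampus). Hhipl1 had 0.55, -0.04 and -0.06 (SE 0.09 each; adjusted p = 0.0470 and 0.0965). Mpp3, a membrane-associated guanylate kinase, had 0.42, -0.16 and -0.08 (adjusted p = 0.0221 and 0.0965). Pam, the enzyme that amidates neuropeptides, had 0.20, -0.13 and -0.04 (adjusted p = 0.0261 and 0.362). Xpot with -0.45, 0.16 and -0.04 (adjusted p = 0.0410 and 0.546) and Arl10, a small GTPase of the Arf-like family, with -0.51, 0.26 and 0.17 (adjusted p = 0.0470 and 0.169) went the other way. In the striatal fit alone Mpp3, Pam and Arl10 did not pass (adjusted p = 0.0930, 0.288 and 0.265). Without HT replicates 2, 3 and 5 of the striatum 0 genes passed either contrast, and against the cortex 0 passed without any 1 of HT replicates 1, 3 or 5 or HM replicate 4. Against the hippocampus 9 passed without HT replicate 4 and 3 without HM replicate 5.

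**Figure D5:**
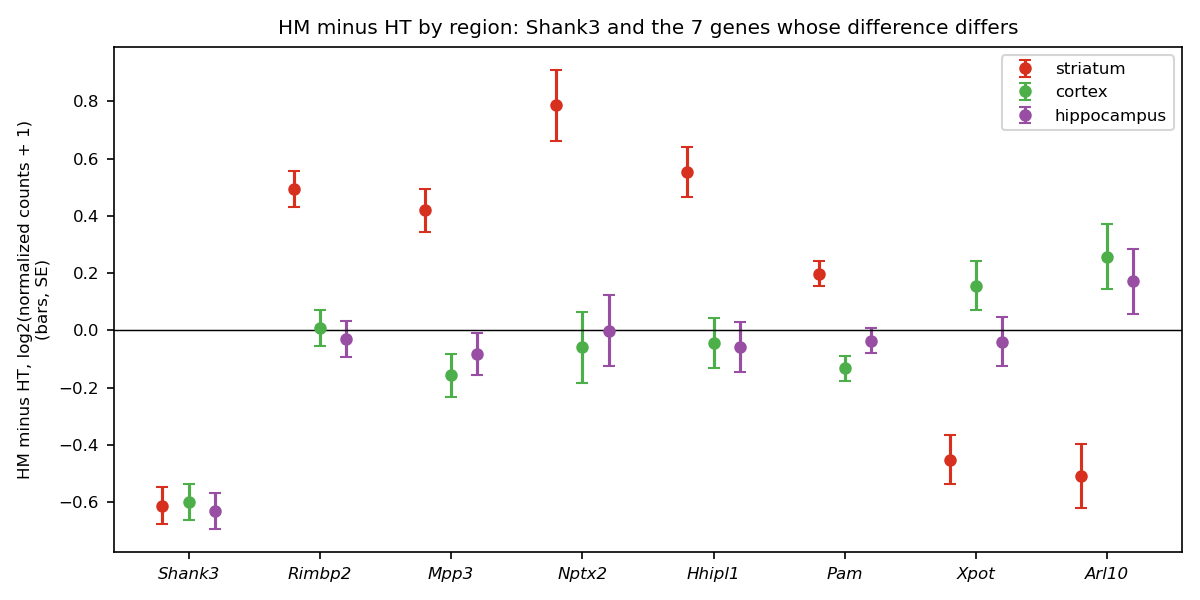
HM minus HT differences on the log2 scale with SE (y axis) in striatum, cortex and hippocampus for Shank3 and the 7 genes that passed a contrast between regions (x axis), from 5 mice per genotype and region. Shank3 lies at -0.61, -0.60 and -0.63, whereas Rimbp2 lies at 0.49 in the striatum and at 0.01 and -0.03 elsewhere.

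Promoters of genes that passed between HM and HT mice, in either direction, are shown to give their sequence context. RefSeq promoter windows of 300 bases around a gene's start (GRCm38.p6) were matched for 15 of the 23 genes, some with several starts. They were searched on both strands for the cAMP response element (TGACGTCA), the AP-1 site (TGANTCA), the GC box (GGGCGG) and the TATA box (TATAAA). These occurred in 1.79%, 7.81%, 35.7% and 13.6% of 32851 windows, and in 0, 7, 8 and 4 of the 25 windows of the 15 genes, some of which overlap, as the 4 of Mir670hg do. Counted by gene, over any of its windows, they occurred in 2.03%, 8.97%, 38.2% and 15.7% of 27025 genes and in 0, 4, 7 and 1 of the 15. A gene with more windows has more letters searched, so that these shares are a description. The AP-1 letters were found for Atp13a4, Cadm3, Mir670hg and Xpot. Printed are Rimbp2, which passed both regional contrasts, Mir670hg, which holds AP-1 and TATA letters, and Gm2115, which was highest in HT mice, with found motifs in capitals. The motifs found in these windows did not overlap each other.
Rimbp2 (chr5:128953437-128953736, minus strand): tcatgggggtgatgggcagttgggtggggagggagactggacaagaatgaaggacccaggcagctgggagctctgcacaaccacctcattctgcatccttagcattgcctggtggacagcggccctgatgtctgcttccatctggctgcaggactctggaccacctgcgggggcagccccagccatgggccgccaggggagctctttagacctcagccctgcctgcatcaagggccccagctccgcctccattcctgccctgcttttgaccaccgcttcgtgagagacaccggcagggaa
Mir670hg (chr2:94265039-94265338, minus strand): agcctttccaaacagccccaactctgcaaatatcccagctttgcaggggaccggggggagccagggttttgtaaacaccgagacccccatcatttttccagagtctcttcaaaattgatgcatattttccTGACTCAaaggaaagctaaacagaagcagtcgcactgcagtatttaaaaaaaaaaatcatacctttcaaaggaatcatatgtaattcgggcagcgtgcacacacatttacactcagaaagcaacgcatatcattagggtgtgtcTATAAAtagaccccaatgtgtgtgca
Gm2115 (chr7:84528724-84529023, plus strand): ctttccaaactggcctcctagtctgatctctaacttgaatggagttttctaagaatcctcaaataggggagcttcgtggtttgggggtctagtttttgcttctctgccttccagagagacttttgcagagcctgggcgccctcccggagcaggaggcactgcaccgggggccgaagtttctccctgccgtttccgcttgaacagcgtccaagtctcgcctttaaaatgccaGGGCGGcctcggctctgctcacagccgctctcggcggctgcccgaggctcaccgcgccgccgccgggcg
A match is a description of these letters, and none was tested for binding or use.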

How the data were processed

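RNA sequencing data of 45 mouse brain samples were used, of which the 15 striatal samples (5 WT, 5 Shank3-HT and 5 Shank3-HM) entered the main test. The signal in the deposited table is a normalized count per gene, made by the authors with Salmon 1.1.0, tximport and DESeq2 on the build GRCm38 (versions per the labels: DESeq2 1.26.0, R 3.6.2). The division differs by gene and sample, so depth is unknown, whole reads could not be recovered (12.9% to 30.5% of low values near whole multiples within 0.05 of a step, 10% by chance) and no count model was used. Sums per striatal sample were 28221128 to 29568983 normalized counts. Of 18135 Ensembl identifiers 18120 were paired with a symbol.

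Values were tested as log2(value + 1) in limma 3.58.1 under R 4.3.3, using lmFit and eBayes with its trend option, and with Benjamini-Hochberg adjustment over the genes of mean at least 10 and a threshold of 0.05. All 3 genotypes shared 1 fit, and regions a fit of 9 groups. The departure from the midpoint is Shank3-HM minus 2 times Shank3-HT plus WT, and so negative where Shank3-HT lies above the midpoint. Single values were compared by exact permutation tests. Scripts were tested on simulated data. Intervals and p values cover the spread between mice.

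Named were Shank3, the 10 genes of smallest p in each direction, the 3 of smallest p for the departure, genes past the threshold between Shank3-HM and WT, those past a regional contrast, 10 striatal and cortical markers, and list members that passed or had the smallest p. The genes and lists were chosen with earlier results of these data known. Alternatives were no intensity trend, quantile normalization, no filter or a minimum mean of 100, 0.1 as the pseudocount, the replicate number as a block, only the 2 groups, and leaving out each mouse. Some results that these rules would name are not reported here. Sequences came from GENCODE vM21 and RefSeq. Figures were drawn with matplotlib 3.10.9 in Python 3.11.15.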

Additional observations from a re-analysis of the deposited data

Results flagged for a closer look

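Within genotypes, a mouse stood apart from the other 4 where its gap to the next mouse exceeded 0.71 of the range (Dixon's criterion), in 14 of 147 groups examined, where chance gives about 1 in 20. Among genes these were Shank3 in HM replicate 5 (4569 normalized counts, others 5883 to 6242), Rimbp2 in HM replicate 2 (6183, others 5789 to 5889), and 3 genes in HT replicate 4: Gm2115 (577, others 720 to 758), Clmp (1118, others 731 to 793) and Mas1 (220, others 122 to 139). Exo1 stood apart in HT replicate 2 (13.8, others 5.95 to 7.14) and in HM replicate 5 (15.5, others 27.6 to 31.4).

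Among lists, the mean log2 level relative to all genes stood apart for choroid plexus and ependyma markers in HT replicate 5 (0.36, others -3.73 to -2.97), for striatal interneuron markers in HT replicate 2 (-0.98) and HM replicate 1 (-0.50), and for cortical and claustral markers in WT replicate 5 (1.34). It also did for inhibitory synapse genes in HM replicate 2 (2.76), for chromosome 15 neighbours of Shank3 in WT replicate 5 (0.53) and for cholesterol synthesis genes in HM replicate 1 (1.257).

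The HM minus HT difference in the striatum differed from that in the cortex for Rimbp2 (by 0.49), Nptx2 (0.84), Hhipl1 (0.60), Mpp3 (0.58), Pam (0.33), Xpot (-0.61) and Arl10 (-0.77), and from that in the hippocampus for Rimbp2 (0.53), on the log2 scale and by limma's test of the difference itself.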

How the results depend on the processing

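The count of 23 genes between HM and HT became 11 without the intensity trend and 7 with only the 2 groups, and 3 to 28 when single mice were left out. It was 26 with quantile normalization, 23 without a filter and with a pseudocount of 0.1, and 21 at a mean of at least 100. No direction reversed in any of these. Leaving out HT replicates 2, 3 and 5 gave 0 genes (748 at an unadjusted p under 0.05) and a Shank3 difference of -0.66 (adjusted p = 0.103), with only 2 HT mice left. Gdpd5, Shank3 and Rimbp2 passed under 22 of 23 alternatives each, all but that one. The departure from the midpoint cannot be computed with only the 2 groups. It had 0 genes in all other alternatives except without HT replicate 4, which gave 8 (Alox8, Syt2, Clmp, Atp13a4, Car14, S100a10, Mas1 and Gm2115).

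Against the cortex the 7 genes became 4 without the trend, with quantile normalization or without a filter, 0 without the 3 HT mice, and 0 to 8 when single mice were left out. Against the hippocampus the 1 gene became 2 with quantile normalization, 0 without the 3 HT mice, and 1 to 9 when single mice were left out.

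With the replicate number as a block 21 genes passed between HM and HT, 18 of them among the 23, and with samples of one genotype and number as a block across regions 8 passed against the cortex and 4 against the hippocampus. Snai3, Clmp, Rnf166, Cadm3 and Mas1 did not pass under the block (adjusted p = 0.0840, 0.0611, 0.0556, 0.0634 and 0.0858). Same-numbered mice correlated in their deviations by 0.02 to 0.16 (HM and HT), -0.05 to 0.14 (HM and WT) and -0.02 to 0.11 (HT and WT), over 0.1 in 1, 1 and 3 of 5 pairs, and 1, 2 and 3 of 5 correlated best with their own number. Not every pair exceeded 0.1, so the numbers were not taken to pair mice. Depth is unknown, and 5 mice per genotype limit the precision.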
